A study of Homo sapiens with 10 samples.

Results

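Myeloma surface antigens that antibodies, T-cell engagers and chimeric antigen receptor (CAR) T cells are directed at, or that sit beside those targets on B-lineage cells, were followed through 10 RNA-seq libraries. The set of 10 genes was chosen by name and not by a threshold on any value: TNFRSF17, TNFRSF13B and TNFRSF13C, the 3 receptors of the BAFF and APRIL ligands; SLAMF7, GPRC5D and FCRL5; CD38 and SDC1; and NCAM1 and CD52. All 10 were found among the 58229 genes of the deposited table, and 8 of them were among the 12872 genes whose mean over the libraries was at least 1 FPKM (fragments scaled by transcript length and library total), the minimum for testing. FCRL5 and TNFRSF13B lay below it and were described separately. The members were chosen with earlier results of these data known, so shares of members set beside all genes are descriptions.

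The libraries came from 2 human multiple myeloma cell lines, H929 and a line labelled only OCI. H929 is an established line also known as NCI-H929; for the other, the labels leave unstated which OCI line was grown. The manipulated gene was AIMP1, which encodes a scaffold of the aminoacyl-tRNA synthetase complex and is also released by cells as a cytokine. In each line there were 2 AIMP1 knockdown libraries, and 1 library each of cells overexpressing AIMP1, of cells treated with AIMP1 protein and of wild-type cells. The wild-type columns carry a suffix, ZY, with no explanation in the labels, and the extraction protocol mentions adipose material; every change from wild type rests on those columns. The labels name neither the constructs and their promoters, nor the protein dose, the treatment times or an empty-vector control, nor do they say whether the libraries were separate cultures. The p-values below therefore measure the spread between these libraries, which may be technical, and a line effect cannot be told apart from anything else that differed between the cultures of the lines. Where line and manipulation are the terms of the fit, that spread also takes in any response to a manipulation that differed between the lines.

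Plasma cells and the myeloma cells derived from them lose most mature B-cell surface molecules and carry a distinct set of receptors in their place. BCMA, the product of TNFRSF17, binds APRIL and BAFF, supports plasma cell survival and is the target of CAR T cells and bispecific antibodies. The gamma-secretase complex cuts BCMA from the cell surface, so that the amount of transcript is only one determinant of the antigen that a drug meets. SLAMF7 is bound by elotuzumab, GPRC5D by talquetamab, the FCRL5 product by cevostamab and CD38 by daratumumab and isatuximab. SDC1 encodes CD138, the heparan sulfate proteoglycan by which plasma cells are usually identified.

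Promoter sequences are shown for the 3 members that stand for the patterns described below: GPRC5D, which was higher in OCI, SDC1, which was high in every library, and CD52, which was higher in H929. RefSeq (GRCh38.p14) gave an entry for 6 of the 10 members, and the 250 bases before the annotated start are printed 5′ to 3′ on the gene's own strand. Each window was searched on both strands for an AP-1 motif (TGANTCA), an NF-kB motif (GGG, any 3 bases, TTCC), an interferon-response motif (GAAA, any 2 bases, GAAA), an octamer (ATGCAAAT) and a TATA motif (TATAAA), and matches are in capitals. GPRC5D lies on chromosome 12 (chr12:12952171-12952420, minus strand), SDC1 on chromosome 2 (chr2:20225131-20225380, minus strand, the second of 2 entries) and CD52 on chromosome 1 (chr1:26317708-26317957, plus strand).
GPRC5D: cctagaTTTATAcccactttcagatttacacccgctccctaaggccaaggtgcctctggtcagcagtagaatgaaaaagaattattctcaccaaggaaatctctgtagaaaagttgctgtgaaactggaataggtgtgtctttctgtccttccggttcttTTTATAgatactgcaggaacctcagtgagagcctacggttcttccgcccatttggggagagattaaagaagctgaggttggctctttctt
SDC1: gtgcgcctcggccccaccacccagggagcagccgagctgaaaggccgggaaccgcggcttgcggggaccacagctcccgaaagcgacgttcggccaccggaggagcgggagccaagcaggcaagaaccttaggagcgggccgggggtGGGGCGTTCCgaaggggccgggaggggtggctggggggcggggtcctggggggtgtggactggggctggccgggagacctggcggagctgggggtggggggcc
CD52: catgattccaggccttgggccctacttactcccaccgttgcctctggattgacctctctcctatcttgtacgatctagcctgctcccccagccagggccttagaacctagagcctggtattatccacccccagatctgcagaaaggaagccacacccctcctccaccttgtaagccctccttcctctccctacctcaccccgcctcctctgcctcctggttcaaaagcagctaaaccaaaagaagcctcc

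The GPRC5D window held the TATA motif at 2 places, both read on the opposite strand, and this motif was present in 11.1% of 27305 promoter windows of the same length. The SDC1 window held a single NF-kB motif, found in 5.61% of windows, and the CD52 window held none of the 5 motifs. The motif matches printed did not overlap each other. All shares of windows count only the first entry of each gene, so the SDC1 window printed, a second entry, is not among them. The base composition of the windows differed: 44.4% of bases were G or C in GPRC5D, 56.4% in CD52 and 75.2% in SDC1, against a median of 58.0% over all windows. No motif was matched in the windows of CD38, FCRL5 and TNFRSF13B or in the other SDC1 entry. The AP-1, interferon-response and octamer motifs, found in 6.6%, 3.07% and 1.66% of all windows, had no match in any member's window. A match describes letters in this window and not a site of binding.

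Before the members, the state of the libraries is given. The wild-type level of AIMP1 was 14.5 FPKM for H929 and 14.3 FPKM for OCI. With overexpression it stood at 431% and 417% of these values. Of the knockdown libraries, both from OCI (35.1% and 16.4%) and the second from H929 (24.5%) were lower, whereas the one labelled H929 knockdown 1 was at 98.2%, so a knockdown was not visible there. Relative sequencing depth ranged from 27.5% to 100% of that of the OCI wild-type library. It was estimated from the commonest ratio to that library among genes averaging under 0.1 FPKM. It was at most 41.8% in the H929 libraries and at least 58.6% in the OCI libraries, apart from OCI overexpression (27.7%). The part of depth in values listed at 0 was not tested. Absolute depth is unknown, so no counting intervals are given. The FPKM sum was 10598232 in the H929 protein library and 3437320 to 4142481 in the other H929 libraries. In OCI it was 7427741 in knockdown 2, 7890139 with overexpression and 3837398 to 4922094 in the other libraries. All 7 plasma cell markers (among them XBP1, IRF4 and JCHAIN) exceeded a mean of 1 FPKM in both lines, with a summed level of 2573 to 3992 FPKM in H929 and 3226 to 4050 FPKM in OCI. The 7 mature B-cell markers summed to 3.59 to 7.51 FPKM in H929, where PAX5 and MS4A1 were among those listed at 0 in every library, and to 9.67 to 19.5 FPKM in OCI. These are bulk libraries, in which fewer cells carrying a transcript and less transcript per cell cannot be told apart.

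The members spanned more than 3 orders of magnitude in level and fell into a similar order in both lines at the top. SDC1 was the highest member in both lines, with a mean of 247 ± 51.3 FPKM in H929 and 286 ± 87.6 FPKM in OCI (SD over 5 libraries of differing manipulation in each line, as for the SDs below). In H929 it was followed by GPRC5D (50.1 ± 21.6 FPKM), TNFRSF17 (38.8 ± 14.5 FPKM) and CD38 (30.4 ± 10.1 FPKM), whose ranges overlapped. CD52 came next, and its range overlapped that of CD38. NCAM1 (8.91 ± 2.78 FPKM) overlapped the lower end of CD52 only, and TNFRSF13C (2.69 ± 1.11 FPKM), SLAMF7 (0.529 ± 0.371 FPKM) and the 2 members below the test minimum closed the order.

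In OCI the GPRC5D mean (266 ± 180 FPKM) lay close to that of SDC1 and the ranges of the pair overlapped. TNFRSF17 (116 ± 68.96 FPKM) followed, its range overlapping that of GPRC5D, and then CD38 (22.2 ± 7.85 FPKM), which stayed below every TNFRSF17 value. SLAMF7 (11.9 ± 12.5 FPKM) took the fifth place that CD52 held in H929, and CD52 was in the eighth place, below NCAM1 (2.67 ± 1.70 FPKM) and TNFRSF13C (1.46 ± 0.567 FPKM). Neighbours in this order from CD38 down to FCRL5 overlapped in range. FPKM is scaled by transcript length, so that these levels can be set beside each other.

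**Figure D1:**
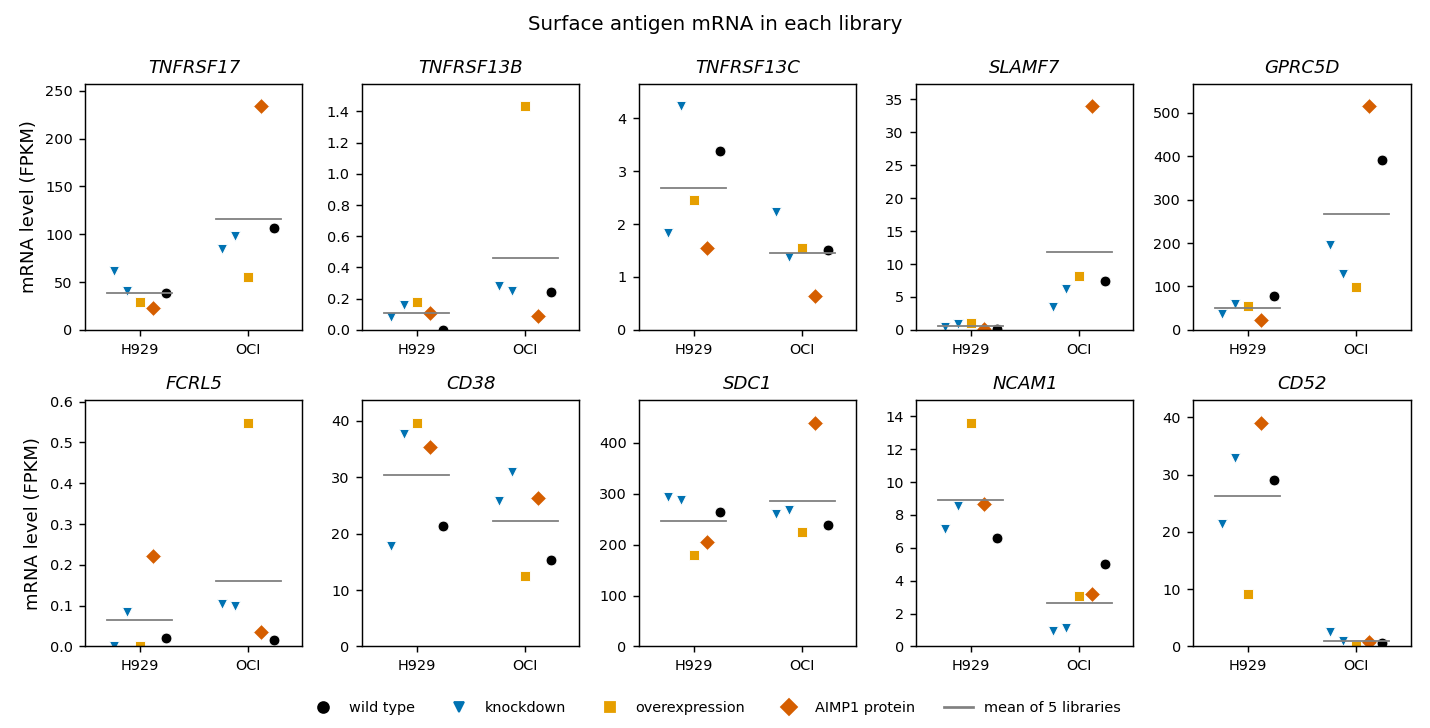
Level in FPKM (linear axis from 0, with its own range in each panel) of the 10 members, 1 panel per gene, with 1 point per library, the manipulation given by marker and colour, and a grey line at the mean of the 5 libraries of a line. SLAMF7, GPRC5D and TNFRSF17 are higher in OCI on average, NCAM1 and CD52 are higher in H929, and the SDC1 means are close.

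The main comparison was that of the lines, made over all 10 libraries with the manipulation as a term. Of the 8 members tested, 3 rose in OCI relative to H929 (SLAMF7, GPRC5D and TNFRSF17) and 2 fell (NCAM1 and CD52), in limma at a Benjamini-Hochberg adjusted p of 0.05. Over all 12872 genes tested, 12.9% were called, 7.6% as higher in OCI and 5.28% as lower. SDC1, CD38 and TNFRSF13C did not pass. SLAMF7 and CD52 reached the minimum for testing only through the line in which they were high. The ranges of the lines did not overlap for 4 of the 8 members (SLAMF7, GPRC5D, NCAM1 and CD52), against 12% of all genes tested; 2 of these were higher in OCI (6.22% of all genes) and 2 lower (5.75%). At an unadjusted p under 0.05, 6 of the 8 passed, against 29.4%. The median log2 difference of the 8 members was -0.13, with 4 members positive and 4 negative, and the median over all genes tested was -0.002. Differences are given as log2 of FPKM + 1, a scale that shrinks the change of low genes.

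**Figure D2:**
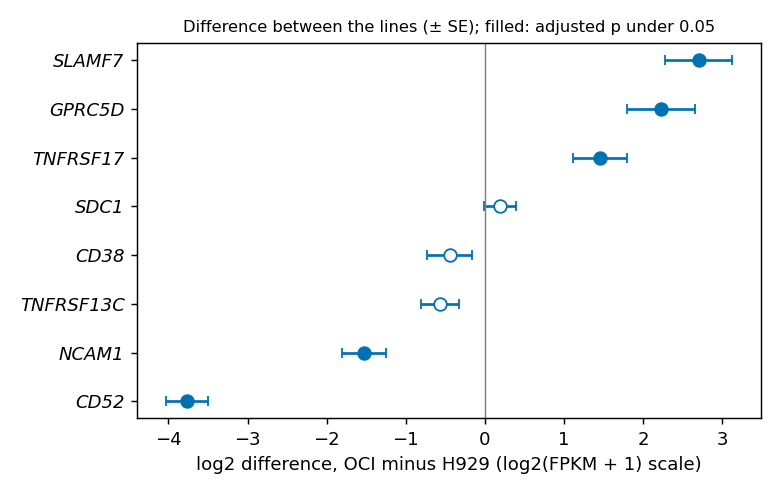
Difference between the lines (OCI minus H929, log2(FPKM + 1) scale) for the 8 members tested, with the standard error of the limma fit over 10 libraries as bars and a filled point where the adjusted p was under 0.05. SLAMF7 has the highest value, 2.71, and CD52 the lowest, -3.77; SDC1, CD38 and TNFRSF13C are open points.

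Among the receptors of BAFF and APRIL, TNFRSF17 (ENSG00000048462) was the only one at a high level. In H929 it stood at 38.8 FPKM in wild type, 61.3 and 41.0 FPKM in knockdown 1 and 2, 29.6 FPKM with overexpression and 23.2 FPKM with AIMP1 protein. In OCI it stood at 107 FPKM in wild type, 84.9 and 98.4 FPKM in knockdown 1 and 2, 54.8 FPKM with overexpression and 234 FPKM with protein. OCI was thus higher under each manipulation, but the ranges overlapped, since H929 knockdown 1 lay above OCI overexpression. The ratio of OCI to H929 was 2.75 in wild type, 1.85 with overexpression, 1.79 for the knockdown means and 10.1 with protein. The fitted difference was 1.46 ± 0.34 (SE), with an adjusted p of 0.0211 in limma. The call was lost when H929 knockdown 2, H929 overexpression, H929 wild type, OCI overexpression or OCI wild type was left out (adjusted p of 0.0540, 0.0515, 0.0717, 0.0520 and 0.0714), and when no minimum level was set (0.0951). Without both protein libraries the difference was 1.003, still called, with an adjusted p of 0.0176.

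TNFRSF13B (ENSG00000240505), which encodes TACI, a receptor that binds both ligands and is found on memory B cells and plasma cells, was near the lower end of the table. It was listed at 0 in H929 wild type and stood at 0.0808, 0.160, 0.178 and 0.111 FPKM in knockdown 1, knockdown 2, overexpression and protein in that line. In OCI the values in the same order were 0.284, 0.247, 1.43 and 0.0889 FPKM, with 0.243 FPKM in wild type. The OCI overexpression library was far above the other 9, and the ranges of the lines overlapped. The difference of the mean log2 values was 0.34, with a p of 0.0476 in an exact two-sided permutation test over 252 regroupings, the smallest possible p being 0.00794. This is 1 of 2 such tests and the p is not adjusted. Leaving out any of the 5 H929 libraries, OCI knockdown 1 or OCI overexpression took p above 0.05. Over all libraries left out in turn, the exact p ranged from 0.00794 to 0.167 and the difference from 0.14 to 0.43.

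TNFRSF13C (ENSG00000159958) encodes the BAFF receptor of mature B cells, which plasma cells normally lose. Its level was 3.38 FPKM in H929 wild type and 1.83, 4.23, 2.45 and 1.55 FPKM in knockdown 1, knockdown 2, overexpression and protein. In OCI it was 1.504 FPKM in wild type and 2.23, 1.38, 1.55 and 0.634 FPKM in the same order. The protein library was the lowest of its line in both lines, and the ranges of the lines overlapped. Between the lines the difference was -0.57 ± 0.24 with an adjusted p of 0.155 in limma, which did not pass.

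SLAMF7 (ENSG00000026751), a self-binding receptor of the SLAM family on plasma cells and natural killer cells, was the member with the greatest rise in OCI. In H929 it stood at 0.195 FPKM in wild type, 0.438 and 0.841 FPKM in knockdown 1 and 2, 0.990 FPKM with overexpression and 0.180 FPKM with protein, below 1 FPKM throughout. In OCI it stood at 7.42 FPKM in wild type, 3.49 and 6.15 FPKM in knockdown 1 and 2, 8.25 FPKM with overexpression and 34.0 FPKM with protein. Every OCI library lay above every H929 library, and the OCI protein library lay far above the other 4. The H929 mean was 0.529 FPKM, so SLAMF7 reached the minimum for testing through its OCI values. OCI exceeded H929 by 2.71 ± 0.42 with an adjusted p of 0.00337 in limma. It remained called in every alternative, between 2.16 and 2.95 with 1 library left out, and with an adjusted p of at most 0.0365. The T and natural killer cell markers, which include the other cell type that carries SLAMF7, summed to 1.11 to 19.3 FPKM in H929 and 0.113 to 3.28 FPKM in OCI, and within OCI the highest sum was in the protein library. The highest H929 sum was mostly GNLY, at 18.1 FPKM in knockdown 1. Of these 8 markers CD3D, CD3G, CD2, CD8A and KLRD1 were listed at 0 in every H929 library and stood at up to 0.264 FPKM in OCI. Most OCI libraries had a greater relative depth than the H929 libraries. The part of cells carrying these markers in the SLAMF7 values was not tested.

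GPRC5D (ENSG00000111291), an orphan receptor of the G protein-coupled class C group found on plasma cells and in hair follicles, showed the second greatest rise. Its H929 values were 78.2 FPKM in wild type, 36.7 and 59.3 FPKM in knockdown 1 and 2, 54.6 FPKM with overexpression and 21.9 FPKM with protein. Its OCI values were 392 FPKM in wild type, 196 and 128 FPKM in knockdown 1 and 2, 98.3 FPKM with overexpression and 515 FPKM with protein. The lines did not overlap, with H929 wild type and OCI overexpression the closest libraries. The ratio of OCI to H929 was 5.01 in wild type, 3.38 for the knockdown means, 1.80 with overexpression and 23.5 with protein. OCI exceeded H929 by 2.23 ± 0.43 with an adjusted p of 0.00997 in limma. It ranged from 1.66 to 2.57 with 1 library left out, still called, and was not called when no minimum level was set (adjusted p of 0.0663).

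FCRL5 (ENSG00000143297), an Fc receptor-like molecule of mature B cells and plasma cells, was below 1 FPKM in all 10 libraries. It was listed at 0 in H929 knockdown 1 and H929 overexpression, and stood at 0.0848 FPKM in H929 knockdown 2, 0.223 FPKM in H929 protein and 0.0207 FPKM in H929 wild type. In OCI the highest value, 0.549 FPKM, was that of overexpression, and the other 4 lay between 0.0149 and 0.104 FPKM. The ranges overlapped, and the exact two-sided permutation test of the lines gave a p of 0.460 for a mean log2 difference of 0.11.

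CD38 (ENSG00000004468), an ectoenzyme that consumes NAD and gives cyclic ADP-ribose, was at like levels in both lines. In H929 it stood at 21.3 FPKM in wild type, 17.8 and 37.7 FPKM in knockdown 1 and 2, 39.7 FPKM with overexpression and 35.3 FPKM with protein. In OCI it stood at 15.3 FPKM in wild type, 25.7 and 31.0 FPKM in knockdown 1 and 2, 12.5 FPKM with overexpression and 26.3 FPKM with protein. The 2 H929 knockdown libraries differed from each other by more than did the line means. The line difference was -0.45 ± 0.29, with an adjusted p of 0.328 in limma.

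SDC1 (ENSG00000115884) varied least of the members, with a highest value 1.63 times the lowest in H929 and 1.96 times in OCI. In H929 it stood at 265 FPKM in wild type, 294 and 289 FPKM in knockdown 1 and 2, 180.4 FPKM with overexpression and 205 FPKM with protein. In OCI it stood at 239 FPKM in wild type, 259 and 268 FPKM in knockdown 1 and 2, 225 FPKM with overexpression and 440.1 FPKM with protein. Apart from the OCI protein library, all values lay in a band shared by the lines. The line difference was 0.20 ± 0.20, with an adjusted p of 0.559 in limma, and its sign was not stable: it was -0.060 after quantile normalization and -0.030 without either or both protein libraries.

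NCAM1 (ENSG00000149294) encodes CD56, an adhesion molecule of neurons and natural killer cells that many myelomas carry and normal plasma cells mostly lack. In H929 it stood at 6.57 FPKM in wild type, 7.17 and 8.53 FPKM in knockdown 1 and 2, 13.6 FPKM with overexpression and 8.65 FPKM with protein. In OCI it stood at 5.04 FPKM in wild type, 0.944 and 1.0999 FPKM in knockdown 1 and 2, 3.06 FPKM with overexpression and 3.21 FPKM with protein. All OCI libraries lay below all H929 libraries, with the wild-type pair the closest. The H929 to OCI ratio was 1.302 in wild type and 7.69 for the knockdown means. The line difference was -1.52 ± 0.28, with an adjusted p of 0.00771 in limma, and it was called in every alternative, with an adjusted p of at most 0.0449.

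CD52 (ENSG00000169442), a short glycoprotein anchored in the membrane of lymphocytes and the target of alemtuzumab, separated the lines the most. In H929 it stood at 29.1 FPKM in wild type, 21.4 and 32.9 FPKM in knockdown 1 and 2, 9.24 FPKM with overexpression and 39.1 FPKM with protein. In OCI it stood at 0.577 FPKM in wild type, 2.499 and 0.997 FPKM in knockdown 1 and 2 and 0.815 FPKM with protein, and it was listed at 0 with overexpression. The lowest H929 library was well above the highest OCI library. The OCI mean was 0.978 FPKM, so CD52 reached the minimum for testing through its H929 values. The line difference was -3.77 ± 0.27, with an adjusted p of 3.45e-05 in limma, the p of rank 26 among 12872 genes. It was called in every alternative, with an adjusted p of at most 0.00780. The direction was opposite to that of the mature B-cell markers, which were higher in OCI in sum, as given above.

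The second question was how the members moved when AIMP1 was changed, and here no member passed. Against wild type, 0 of 8 members were called in limma with knockdown, overexpression or protein; over all genes tested 0% were called with knockdown, 0% with overexpression and 0.0155% with protein (2 genes, both higher). At an unadjusted p under 0.05, none of the 8 members passed with knockdown (355 of all genes tested, 2.76%), 1 with overexpression (818, 6.35%) and none with protein (2447, 19%). The 3 comparisons share the wild-type library of each line, so a high or low wild-type value moves all of them together. The values below are therefore descriptions of libraries. In the protein comparison the median over all genes tested was 0.14, and 0.01 and 0.00 in the other 2.

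**Figure D3:**
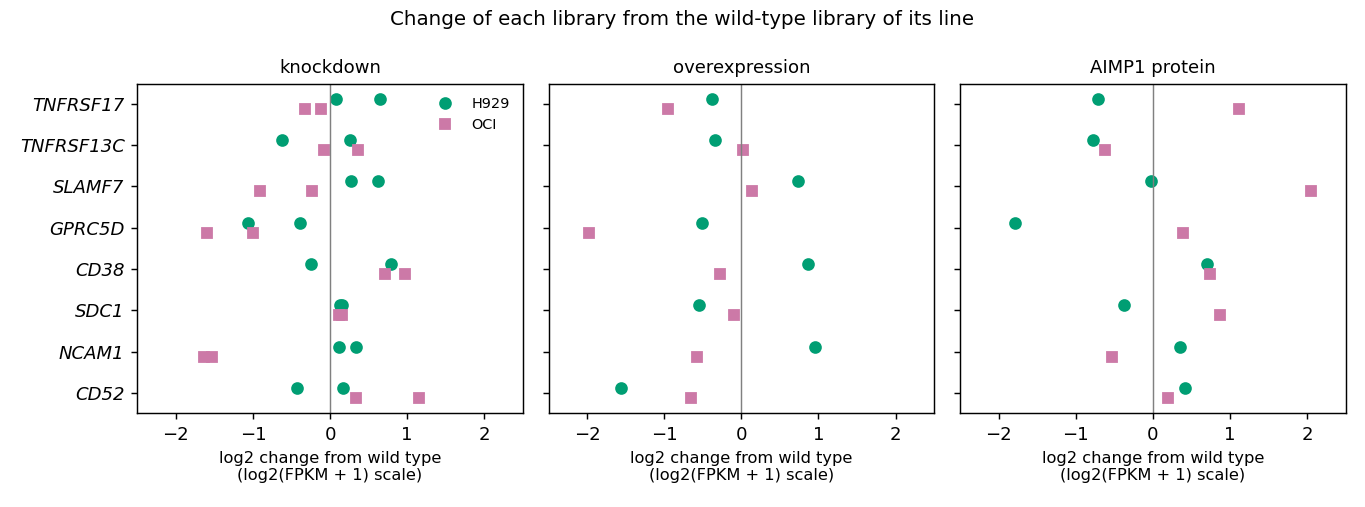
Change from the wild-type library of the same line (log2(FPKM + 1) scale) of the 8 members tested in each manipulated library, H929 and OCI side by side, with 1 point per library. In the protein libraries TNFRSF17, GPRC5D and SLAMF7 lie below 0 in H929 (SLAMF7 only just) and above 0 in OCI; no change from wild type passed the test.

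With knockdown, GPRC5D was lower than wild type in all 4 libraries and SDC1 was higher in all 4; the shares of all genes tested with such a pattern were 14.3% and 13.6%. The knockdown difference of GPRC5D was -1.01 ± 0.59 with an adjusted p of 0.980 in limma, and -0.98 without H929 knockdown 1, in which AIMP1 was not reduced. That of SDC1 was 0.14 ± 0.28, and -0.073 without OCI wild type. NCAM1 showed the lowest knockdown values relative to wild type: the 2 OCI knockdown libraries stood at 18.7% and 21.8% of wild type, whereas both H929 knockdown libraries lay above theirs. Its fitted difference over both lines was -0.68 ± 0.38 with an adjusted p of 0.980, and without OCI wild type it turned to 0.07. TNFRSF17, SLAMF7 and NCAM1 had opposite signs in the lines, 3 of 8 members against 13% of all genes tested.

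With overexpression, TNFRSF17, GPRC5D, SDC1 and CD52 were lower than wild type in both lines, 4 of 8 members against 30.6% of all genes tested. GPRC5D stood at 69.9% of wild type in H929 and 25.1% in OCI, with a fitted difference of -1.25 ± 0.68 and an adjusted p of 0.742 in limma. CD52 had the smallest unadjusted p of the members, 0.0261, for a difference of -1.11 ± 0.42, and its adjusted p was 0.742. The TNFRSF17 difference was -0.66 ± 0.53, with an adjusted p of 0.785. SLAMF7 was higher in both lines (30.9% of all genes tested), with 0.44 ± 0.67. CD38, TNFRSF13C and NCAM1 went opposite ways in the lines, against 36.9% of all genes tested.

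With AIMP1 protein, the members divided between the lines. The OCI protein library was the highest of its line for TNFRSF17, SLAMF7, GPRC5D and SDC1, 4 of 8 members against 30.9% of all genes tested, and the lowest for TNFRSF13C (25.4%). The H929 protein library was the lowest of its line for TNFRSF17, SLAMF7, GPRC5D and TNFRSF13C, 4 of 8 against 19.8%, and the highest for CD52 (40.6%). Signs were opposite in the lines for TNFRSF17, SLAMF7, GPRC5D, SDC1 and NCAM1, 5 of 8 against 38.1%. In H929, SLAMF7 enters these counts by 0.180 FPKM with protein against 0.195 FPKM in wild type, a log2 change of only -0.018. TNFRSF17 in the OCI protein library stood at 219% of wild type and SLAMF7 at 4.58 times it, whereas GPRC5D was at 28.0% of wild type in H929 and at 132% in OCI. CD38 stood at 166% and 171% of wild type in H929 and OCI, and with CD52 was higher in both lines (36.7% of all genes tested). TNFRSF13C stood at 46.0% and 42.2%, lower in both lines (23.7%). The fitted protein differences were 0.72 ± 0.45 for CD38 (adjusted p of 0.400 in limma) and -0.70 ± 0.39 for TNFRSF13C (0.345).

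For members with opposite signs, the fit over both lines rests on single libraries. The GPRC5D protein difference was -0.70 ± 0.68 and turned to 0.72 without the H929 protein library. That of SLAMF7 was 1.02 ± 0.67 and turned to -0.35 without the OCI protein library. The differences of TNFRSF17 (0.21 ± 0.53) and SDC1 (0.25 ± 0.32) were -0.03 and -0.05 after quantile normalization, so neither has a direction that holds across scalings.

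The difference of the protein effect between the lines was tested on its own, on 8 group means with 2 residual degrees of freedom. None of the 8 members passed after adjustment, and 0.101% of all genes tested did (13 genes), 0.0155% with the greater value in OCI and 0.0855% with the greater value in H929. TNFRSF17 (1.84 ± 0.58), SLAMF7 (2.07 ± 0.74), GPRC5D (2.19 ± 0.71) and SDC1 (1.24 ± 0.43) had a greater change in OCI. Their unadjusted p values in limma were 0.0235, 0.0362, 0.0265 and 0.0329, against 6.98% of all genes tested with an unadjusted p under 0.05, and their adjusted p values were 0.700 to 0.702. CD38, TNFRSF13C and CD52 gave differences of 0.04 ± 0.81, 0.16 ± 0.85 and -0.21 ± 0.82, whose errors exceed them, and NCAM1 one of -0.87 ± 0.57. The median over the members was 0.70 and over all genes tested -0.09. In the OCI protein library the 7 myeloid markers summed to 12.3 FPKM (S100A9 at 6.22 FPKM), against 0.0841 to 7.33 FPKM in the other OCI libraries, with MPO listed at 0. The part of other cells in the values of that library was not tested.

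Genes that act with the members were then examined in 8 lists. Of 11 genes, made up of the BAFF and APRIL ligands, the proteases that release their receptors and CAMLG, 9 were tested. The line difference was positive for 3 of them and negative for 6. The 3 positive ones, all called, are described here, and whether any of the 6 was called is not reported here. Over all genes tested, 7.6% were called higher in OCI and 5.28% lower, shares that stand beside the counts of each list below. Both ligands were below the test minimum: TNFSF13, which encodes APRIL, reached at most 0.432 FPKM and TNFSF13B, which encodes BAFF, at most 0.960 FPKM. The genes that rose encode subunits of gamma-secretase, the protease that cuts BCMA. APH1B (mean 1.74 ± 0.767 FPKM in H929) rose by 1.43 ± 0.21 with an adjusted p of 0.00233, and APH1A (81.7 ± 8.69 FPKM in H929) rose by 1.06 ± 0.16 with an adjusted p of 0.00283. PSENEN rose by 0.80 ± 0.19, with an adjusted p of 0.0261; its call was lost without either H929 knockdown library, or without the overexpression or protein library of either line, with adjusted p up to 0.0730. No gene of the list was called with knockdown, overexpression or protein.

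Of the other SLAM receptors and adaptors 2 of 10 genes were tested, of the other Fc receptor-like genes 1 of 7 and of the other GPRC5 receptors 1 of 3, and none was called in any comparison over all 10 libraries. GPRC5B, between the lines at -0.75 ± 0.22 (adjusted p of 0.0522 in limma), was called after quantile normalization (0.0307) and without a trended prior (0.0269). LY9, a self-binding SLAM receptor, at 1.103 ± 0.38 (0.0893), was called without H929 knockdown 1 (0.0349). CD48, a SLAM family glycoprotein with a mean of 73.2 ± 19.3 FPKM in H929, had a protein difference of 0.97 ± 0.37 (adjusted p of 0.209 in limma). LY9 had one of 1.28 ± 0.61 (0.283).

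Around CD38, 4 of 6 genes of NAD and adenosine handling at the cell surface were tested, and 1 rose and 1 fell in OCI. Both encode adenosine receptors: ADORA2A rose by 1.64 ± 0.41 (adjusted p of 0.0281 in limma) and ADORA2B fell, with a difference of -1.14 ± 0.24 (0.0139). ADORA2A reached the minimum for testing through OCI (average 4.39 FPKM), as it averaged 0.635 FPKM over the H929 libraries. The ADORA2A call was lost without H929 knockdown 2 or without the overexpression or wild-type library of either line, with adjusted p up to 0.103, while the ADORA2B call remained with any library left out. ENTPD1, the ectonucleotidase CD39, had an overexpression difference of 1.89 ± 0.49 (adjusted p of 0.742) and did not pass.

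Around SDC1, 16 of 19 genes of other syndecans and of heparan sulfate synthesis were tested, and 4 rose and 1 fell in OCI. XYLT1, which starts the sugar chains on the core protein, rose by 2.07 ± 0.32 (adjusted p of 0.00331 in limma). SULF1, which removes sulfate groups outside the cell, rose by 1.62 ± 0.25 (0.00288), from a mean of 8.94 ± 5.08 FPKM in H929 to 26.0 FPKM in OCI. SDC4, another syndecan, averaged only 0.214 FPKM over the H929 libraries and reached the minimum for testing through OCI (average 2.57 FPKM). In OCI wild type it stood at 0.524 FPKM, below its value in H929 protein (0.543 FPKM). It rose by 1.47 ± 0.30 (0.0119), a call lost without OCI overexpression (0.0514), while SDC1 itself did not pass. With AIMP1 protein SULF1 had a difference of 1.55 ± 0.39 (0.129) and did not pass either.

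Of 4 complement and phagocytosis inhibitors (among them CD47 and CD59), all tested, none was called. Of 41 other surface antigens of B cells and myeloma cells 26 were tested, and 5 rose and 2 fell in OCI. CD74, the invariant chain of MHC class II, rose by 2.12 ± 0.47 (adjusted p of 0.0178 in limma), a call lost without H929 knockdown 2 or without either protein library (0.0519 to 0.0530). The adhesion molecule ICAM1 rose by 1.76 ± 0.36 (0.0122), lost without either overexpression library (0.0554 and 0.0566). ICAM1 reached the minimum for testing through its OCI values (average 3.99 FPKM), since the H929 libraries averaged 0.218 FPKM. CCR10, a chemokine receptor of plasma cells, rose by 1.76 ± 0.44 (0.0291) from 12.4 ± 2.17 FPKM in H929 to 67.4 ± 81.6 FPKM in OCI. In OCI it stood at 212 FPKM with protein and at 18.5 to 45.6 FPKM in the other libraries. Its call was lost in 7 of 10 cases when a library was left out, for either H929 knockdown, the overexpression and wild-type library of either line and OCI knockdown 2, with adjusted p up to 0.0882. In the protein comparison CD74 had a difference of 3.40 ± 0.74 (0.108) and TNFRSF8, which encodes CD30, one of -2.48 ± 0.48 (0.108); neither passed, although both did without OCI knockdown 2 (0.0400 and 0.0281). With no minimum level set, the line calls of PSENEN, ADORA2A, ADORA2B, CD74, ICAM1 and CCR10 were lost (adjusted p of 0.0547 to 0.123), and on 8 group means those of PSENEN (0.0623) and ADORA2B (0.0546).

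**Figure D4:**
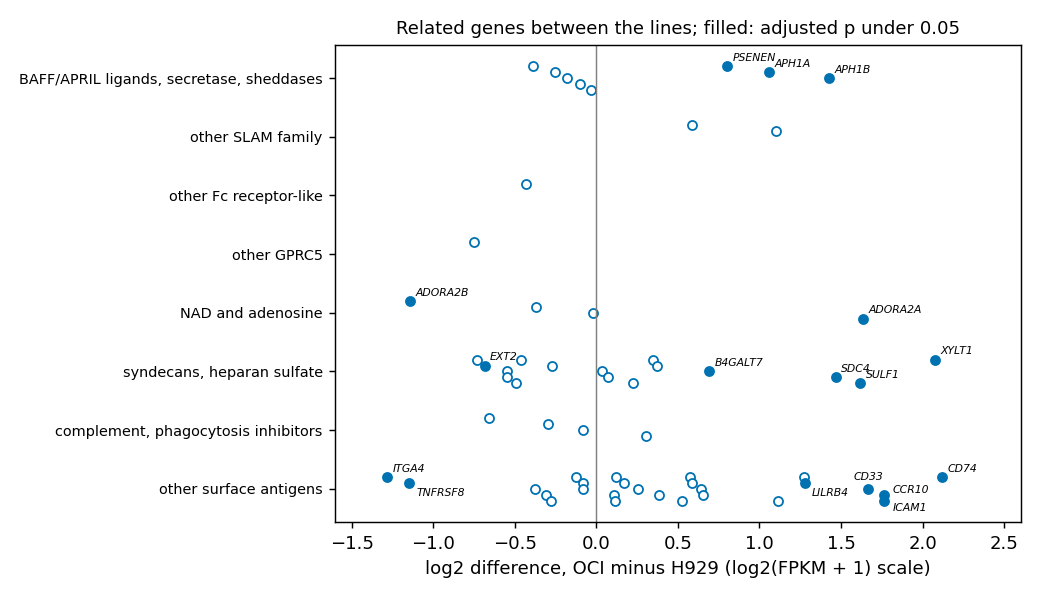
Difference between the lines (OCI minus H929, log2(FPKM + 1) scale) of 62 of the 63 tested genes of the 8 related lists, 1 row per list and 1 point per gene, filled and named where the adjusted p was under 0.05. The gamma-secretase subunits APH1A, APH1B and PSENEN lie to the right, and XYLT1 and CD74 are the points farthest right. NCSTN, another subunit of gamma-secretase, is an open point at -0.18.

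The genes whose values followed each member most closely were listed by Pearson's r over the 10 libraries after removing each line's mean; the points share a line and 1 normalized table and differ in depth, and with 12872 genes searched over 10 points high values arise readily, so r is a description. TNFRSF17 was closest to CAPN15 (r = 0.97) and TBP (0.96), SLAMF7 to HEG1 (0.98) and CELSR3 (0.95), and GPRC5D to TTPAL (0.95) and ZFTA (0.94). CD38 was closest to PDE8A (0.93) and PILRA (0.92), SDC1 to TMEM202-AS1 (0.99) and SPHK2 (0.97), and TNFRSF13C to RASSF2 (0.92) and DNAJC22 (0.91). NCAM1 was closest to CCDC122 (0.94) and ARHGAP4 (0.92), and CD52 to BAK1 (0.92) and VAV1 (0.91). No member was among the 2 closest genes of another member.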

How the data were processed

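Poly(A) RNA was sequenced as paired ends, per the labels' protocols. The authors deposited 1 table of FPKM values, scaled by transcript length and library total; the tools listed per the submitters' processing notes, with no role stated, are Bowtie 0.12.2, StringTie 1.3.0 and HISAT2 2.0. The notes name the build mm8 although the gene identifiers are human, so no coordinates were taken from the table. Whether strand was used and how reads matching several places were assigned remain unstated.

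Values were tested as log2(FPKM + 1) with limma 3.58.1 in R 4.3.3 on genes averaging at least 1 FPKM, with line and manipulation as terms (5 residual degrees of freedom), a trended prior and Benjamini-Hochberg adjustment over all genes tested. The protein effect by line used 8 group means. Members below the minimum were compared between lines by an exact permutation test. The fits were tested on simulated data. Named beyond the members were, per related list and comparison, up to 3 called genes by size, then, if fewer than 2 were called, up to 2 with the same sign in every library, and for each tested member its 2 most similar genes. The members and lists were chosen with earlier results of these data known. Some listed genes are not reported here. Knockdown numbers do not pair the lines. Alternatives varied the pseudocount, minimum level, scaling, prior, block, group means and each library in turn.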

Additional observations from a re-analysis of the deposited data

Results flagged for a closer look

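Of 16 member effects of knockdown and overexpression examined, 6 went one way in every H929 library and the other way in every OCI library; the difference between the lines was not tested for any of them. Values are changes from wild type on the log2(FPKM + 1) scale, and the difference is OCI minus H929. The H929 knockdown means below include knockdown 1, in which AIMP1 was at 98.2% of wild type. With knockdown, TNFRSF17 had a mean change of 0.36 in H929 and -0.22 in OCI, a difference of -0.58. Its H929 change was 0.65 in knockdown 1 and only 0.078 in knockdown 2. SLAMF7 had 0.44 in H929 and -0.57 in OCI, a difference of -1.02. NCAM1 had 0.22 and -1.58, a difference of -1.80. With overexpression, CD38 had 0.87 in H929 and -0.27 in OCI, a difference of -1.14. TNFRSF13C had -0.35 and 0.02, a difference of 0.37. NCAM1 had 0.95 and -0.57, a difference of -1.52, so that it was flagged under both manipulations. Opposite signs in all libraries were present in 13% of all genes tested with knockdown and in 36.9% with overexpression, where each line has a single library.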

How the results depend on the processing

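Of 683 values of the 8 tested members under the alternatives, 649 kept their direction and side of the threshold and 7 lost their call between the lines (6 for TNFRSF17 and 1 for GPRC5D). The other 27, in 16 results, changed sign; none of these results was called. Among them, with a library left out, the protein differences ranged from -0.93 to 1.34 for TNFRSF17, from -0.31 to 0.82 for SDC1 and from -0.84 to 0.66 for NCAM1, and the overexpression differences from -0.42 to 1.01 for CD38 and from -0.56 to 0.94 for NCAM1. The cause of these shifts was not tested. With a library left out, the knockdown differences ranged from -1.43 to 0.071 for NCAM1, from -0.28 to 1.24 for SDC4, from -0.045 to 1.61 for CXCR4 and from -0.088 to 1.54 for ICAM1, and the overexpression difference of SDC4 from -0.090 to 1.44; each reversed without OCI wild type. The protein difference of GPRC5D ranged from -2.12 to 0.72 and reversed without the H929 protein library, and that of SLAMF7 ranged from -0.35 to 2.38 and reversed without the OCI protein library. Genes called with knockdown numbered 0, but 11 with no minimum level, 3 on 8 group means and 0 to 6 with a library left out. With overexpression they numbered 0, but 17 with no minimum, 1 at a mean of at least 5 FPKM, 1 after quantile normalization and 0 to 5 with a library left out. With protein they numbered 2, but 14 with no minimum, 4 at 5 FPKM, 1 after median centring, 0 after quantile normalization, 12 on 8 group means and 0 to 442 with a library left out. Between the lines they numbered 1658, but 1063 with no minimum, 844 on 8 group means and 787 to 1657 with a library left out. For the protein effect by line they numbered 13, but 7 with log2(FPKM + 0.1), 1425 with no minimum and 0 to 13 with a library left out. The TNFRSF13B line difference ranged from 0.14 to 0.43 with a library left out.

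Knockdown libraries with the same number did not deviate together in the lines (correlation 0.0757 over 12872 genes, 2 pairs). A replicate block on that number gave 1 called gene with overexpression and 7 with protein, and changed no member's call. The protein effect by line could not be fitted without a protein or a wild-type library. Most groups hold 1 library, and depth is known in relative terms only.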
